A study of Mus musculus with 3 samples.

Results

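The genes described here are Steap1, Zfpm2, Tnfrsf12a, Ankrd1, Twist2, Bdnf, Syt13, Pxdn and Emp1, 9 of the 7984 genes named in the table. They were selected on their measured log ratios between RNA of mouse spleen and a universal reference RNA of mouse, which were among the most negative on the arrays. A probe belonged to the set if the platform's probe-to-gene table gave it 1 of these symbols, which held for 15 of 16273 probes. Because these ratios chose the genes, they are given as a description, with no test. On each of the 3 two-colour arrays, which form 1 group, the red dye Cy5 marked cRNA from purchased spleen total RNA, and the green dye Cy3 marked cRNA from the purchased reference, which pools RNA of mouse cell lines. Both cRNAs came from a single round of amplification. The labels name 1 product for each RNA, so the spread between arrays may be technical, and they give no strain, age or sex of the spleen donors and no list of the cell lines.

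The deposited values are log ratios whose base and numerator are not stated. A negative value is taken as likely higher in the reference, since spleen is labelled red, ratios are usually written red over green, and most marker genes of blood cells had positive values. The titles name the reference first, which could mean the opposite order, and with no dye swap labelled a dye effect and an RNA difference cannot be told apart. Each fold is therefore stated under each base, 2 and natural. Where a probe held exactly 0 on an array it was taken as not measured there. All 3 arrays measured 11086 probes, and no intensities were analysed, so signal over background is unknown. Markers of spleen cells were positive by limma's test at an adjusted p under 0.05 for 4 of 4 B cell probes, 4 of 5 T cell probes, 26 of 26 erythroid probes and 3 of 3 macrophage probes (medians 3.37, 2.24, 2.89 and 3.73). The other T cell probe, of Cd3d, was called negative (mean -0.85). The 26 erythroid probes belong to 3 genes and the 3 macrophage probes to 2. Over all probes, 32.3% were called positive. Of the proliferation markers, 1 of 4 probes was negative and 0 positive, beside 36.0% negative over all probes. The negative probe was of Cdk1 and the others were all of Pcna. Of the stromal cells that spleen also holds, 3 listed marker probes (Ccl19, Cxcl12 and Cxcl13) were each measured on 1 array at most, so the stromal share of the spleen RNA was not tested. In bulk RNA, fewer cells of a type and less RNA per cell cannot be told apart.

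Mesenchymal cells build connective tissue and matrix, and cultured fibroblast-like cells keep many of their genes active. TWIST factors are basic helix-loop-helix regulators of mesenchymal cells. YAP and TAZ are coactivators held in check by the Hippo pathway, and in spread, proliferating cells they enter the nucleus and switch on target genes through the DNA-binding TEAD factors. In spleen, where blood cells dominate, mesenchymal cells form the reticular network. The 9 genes are known for different roles, in transcription (Zfpm2, Twist2 and Ankrd1), signalling (Tnfrsf12a and Bdnf), matrix (Pxdn) and the membrane or its traffic (Steap1, Emp1 and Syt13). They are not all mesenchymal markers, and a list of mesenchymal cell markers went both ways, as given further on, so the set is called by its rule, the reference-side genes.

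All 41 measured values of the 15 probes were below 0. Of these probes 13 were measured on all 3 arrays, 1 probe of Twist2 on 2 arrays and 1 probe of Ankrd1 on 0. Over the 13 probes the values ran from -4.25 to -2.66 on array 1, from -4.47 to -3.02 on array 2 and from -4.59 to -2.66 on array 3, with medians of -3.36, -3.36 and -3.23. The median of their means was -3.41, beside -0.033 over all 11086 probes. In limma's fit across all probes, which is used for the lists further on, 36.0% of probes were called negative, and that these 13 are among them follows from their choice. Of the 22 probes with a mean of -3 or less, 12 were probes of these genes.

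**Figure D1:**
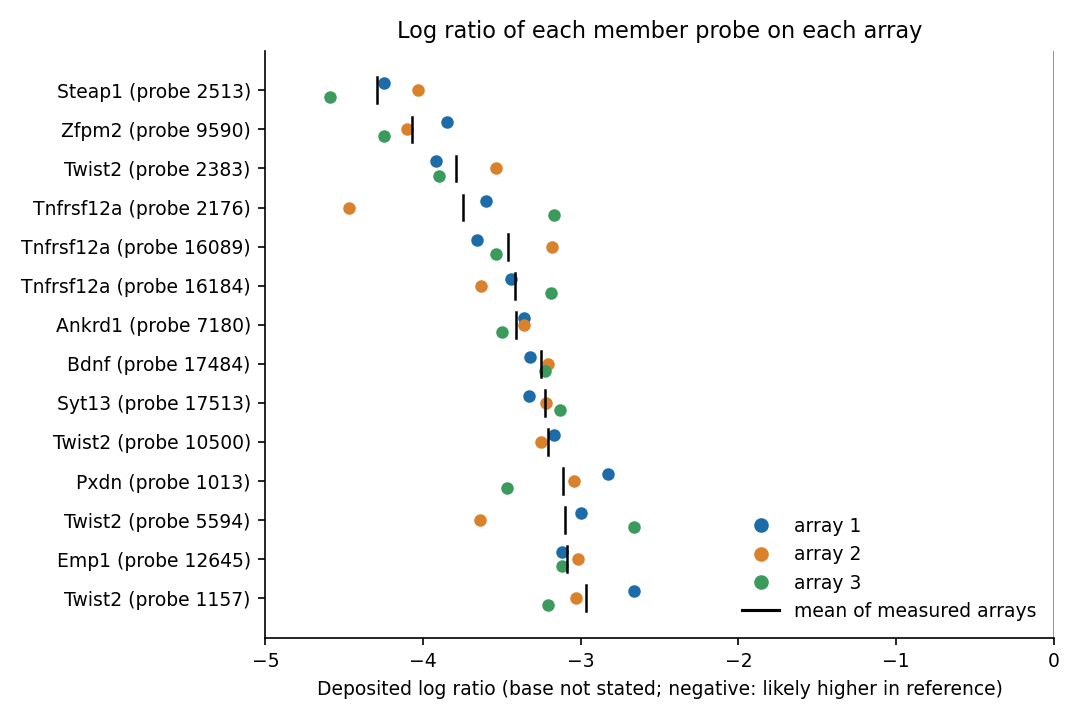
Deposited log ratio (horizontal axis, base not stated) of the 14 member probes with a measurement, by array (coloured points), with the mean of the measured arrays as a black line. All points lie below -2.6, and Tnfrsf12a probe 2176 and Twist2 probe 5594 are spread most widely.

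Among the regulators of transcription, Zfpm2 had the lowest mean ratio, while the Twist2 probes lay on either side of Ankrd1. Zfpm2, a zinc finger cofactor of GATA factors in heart and gonad development, had log ratios of -3.85, -4.10 and -4.25 on arrays 1 to 3. The 3 arrays lay close together, with a mean of -4.07 ± 0.20 (SD, n = 3), which would be 16.8-fold in base 2 and 58.4-fold in natural logs. Twist2, a helix-loop-helix factor of dermal and other mesenchyme, was read by 4 probes. Probe 2383 had -3.92, -3.54 and -3.90 (mean -3.79 ± 0.214, SD, n = 3). Probe 5594 had -3.0, -3.64 and -2.66 (mean -3.10 ± 0.498, SD, n = 3). Array 2 was the least negative for the first of these probes and the most negative for the second, so the probes of this gene did not share an array pattern. Probe 1157 had -2.66, -3.03 and -3.21 (mean -2.97 ± 0.278, SD, n = 3), while probe 10500 had -3.17 and -3.25 and was listed at 0 on array 3. Averaged over the 3 fully measured probes, Twist2 had -3.20, -3.40 and -3.25 on the arrays. The SD between arrays of this average was 0.107, which averaging makes smaller than that of a single probe. The SD between the probes on an array was 0.653, 0.324 and 0.621. Between arrays, the single probes 2383, 5594 and 1157 had SDs of 0.214, 0.498 and 0.278, so the 2 kinds of spread overlap.

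Ankrd1, the cardiac ankyrin repeat protein and a widely used readout of YAP and TAZ activity, had log ratios of -3.36, -3.36 and -3.50 on its probe 7180. The mean was -3.41 ± 0.080 (SD, n = 3), 10.6-fold in base 2 and 30.2-fold in natural logs, and the arrays were nearly alike. The other probe of this gene, 14989, was listed at 0 on all 3 arrays, so the gene rests on 1 probe, and with 0 kept as a value the mean over both probes would be -1.70. The 250 bases before the start of Ankrd1 (GRCm38.p6 chr19:36119845-36120094, minus strand) are shown because this gene stands for the TEAD-driven class, with matches to the TEAD core GGAATG in capitals, here and in the sequences further on, together with any match to the AP-1-like pattern TGANTCA. This pattern takes any base at N and is wider than the AP-1 consensus TGA(C/G)TCA.

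Ankrd1: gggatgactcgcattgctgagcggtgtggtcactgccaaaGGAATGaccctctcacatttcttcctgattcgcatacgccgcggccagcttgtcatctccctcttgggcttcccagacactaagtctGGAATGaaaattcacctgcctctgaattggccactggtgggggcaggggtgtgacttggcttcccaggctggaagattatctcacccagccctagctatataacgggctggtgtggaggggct

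This window holds GGAATG at positions -210 and -123, counted back from the start to the first base of each match, and no TGANTCA. Promoter windows from RefSeq were found for 7 of the 9 genes, 14 windows in all because Bdnf has 7 starts and Emp1 has 2. On either strand, GGAATG was in 3 of these 14 windows (21.4%), of Ankrd1 and Bdnf, against 12.6% of 32851 windows of the same length. Windows of 1 gene are not independent, and a match is a description of the letters, not a bound site. TGANTCA was in 2 of the 14 windows (14.3%, against 6.7% of all windows). The E-box CANNTG, the class of site that TWIST factors bind, was in 11 (78.6% against 66.2%). The GATA site AGATAA was in 4 windows (28.6% against 9.99%), which belong to only 2 genes, Bdnf and Ankrd1. CCATAT, part of a form of the SRF site, was in 1 (7.1% against 5.9%). In Bdnf window 4 the CCATAT match overlaps an E-box match. The Twist2 window held none of these 5 motifs.

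Of the signalling genes, Tnfrsf12a was read by 3 probes and Bdnf by 1. Tnfrsf12a encodes the receptor for the cytokine TWEAK, a TNF family ligand, and its RNA is known to be induced by growth factors and injury. Probe 2176 had log ratios of -3.60, -4.47 and -3.17, with the lowest value on array 2 (mean -3.75 ± 0.661, SD, n = 3), and 99.7% of all probes had a smaller SD. Probe 16089 had -3.66, -3.18 and -3.54 (mean -3.46 ± 0.252, SD, n = 3), with its least negative value on array 2. Probe 16184 had -3.44, -3.63 and -3.19 (mean -3.42 ± 0.223, SD, n = 3). The probe means lay within 0.33 of each other, which is less than the SD of probe 2176. Averaged over the probes, Tnfrsf12a had -3.57, -3.76 and -3.30 (mean -3.54 ± 0.230, SD, n = 3). The bases before its start (GRCm38.p6 chr17:23677450-23677699, minus strand) are shown as the comparison for Ankrd1, since this gene's window has no match to either motif in capitals.

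Tnfrsf12a: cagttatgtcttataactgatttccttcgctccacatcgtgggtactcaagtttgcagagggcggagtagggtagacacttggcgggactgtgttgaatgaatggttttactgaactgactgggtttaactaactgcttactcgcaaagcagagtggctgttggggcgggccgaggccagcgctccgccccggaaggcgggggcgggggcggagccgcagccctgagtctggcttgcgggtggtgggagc

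Bdnf, a neurotrophin that signals through the receptor tyrosine kinase encoded by Ntrk2, had log ratios of -3.32, -3.21 and -3.23. Its mean was -3.25 ± 0.057 (SD, n = 3), 9.52-fold in base 2 and 25.8-fold in natural logs, and this was the smallest SD of the 13 probes. Bdnf is transcribed from several alternative first exons, and the table does not say which of them the probe reads. Of its 7 windows, window 2 (GRCm38.p6 chr2:109676782-109677031, plus strand) holds GGAATG and TGANTCA at positions -223 and -152. The second match reads TGAATCA, which lies outside the AP-1 consensus. Window 7 (chr2:109722671-109722920, plus strand) holds the reverse complement of GGAATG at -77. Both windows are shown because, of the 7 genes with a window, Bdnf and Ankrd1 had the TEAD core matches.

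Bdnf window 2: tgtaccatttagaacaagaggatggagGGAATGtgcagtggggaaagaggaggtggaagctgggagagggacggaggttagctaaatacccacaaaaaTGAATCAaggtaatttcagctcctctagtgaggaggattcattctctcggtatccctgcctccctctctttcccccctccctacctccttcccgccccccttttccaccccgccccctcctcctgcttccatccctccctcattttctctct

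Bdnf window 7: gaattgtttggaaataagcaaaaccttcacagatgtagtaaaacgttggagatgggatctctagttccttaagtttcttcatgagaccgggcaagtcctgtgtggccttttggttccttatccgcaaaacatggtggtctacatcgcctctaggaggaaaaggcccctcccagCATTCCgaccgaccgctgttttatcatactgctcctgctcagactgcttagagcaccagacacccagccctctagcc

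Pxdn, or peroxidasin, is an extracellular heme peroxidase that forms the sulfilimine crosslinks of collagen IV in basement membranes. Its log ratios were -2.83, -3.04 and -3.47, with array 3 the most negative. The mean was -3.11 ± 0.326 (SD, n = 3), 8.65-fold in base 2 and 22.5-fold in natural logs, and 94.4% of all probes had a smaller SD.

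The membrane and membrane traffic genes include the lowest and the highest gene of the set. Steap1, a multi-pass membrane protein first described in prostate, had log ratios of -4.25, -4.03 and -4.59. Its mean of -4.29 ± 0.284 (SD, n = 3), 19.6-fold in base 2 and 73.0-fold in natural logs, was the second lowest of the 11086 probes. Syt13, an atypical member of the synaptotagmins, which act in vesicle traffic, had -3.33, -3.22 and -3.13 (mean -3.23 ± 0.104, SD, n = 3), with the 3 arrays close together. Emp1, a membrane protein of the PMP22 family found in proliferating epithelial and other cells, had -3.12, -3.02 and -3.12 (mean -3.09 ± 0.060, SD, n = 3), which is 8.49-fold in base 2 and 21.9-fold in natural logs. The first of the 2 Emp1 windows (GRCm38.p6 chr6:135362681-135362930, plus strand) is shown because it has a pair of TGANTCA matches, at positions -145 and -25. The match at -145, TGAGTCA, has the AP-1 consensus, and the one at -25, TGATTCA, does not.

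Emp1 window 1: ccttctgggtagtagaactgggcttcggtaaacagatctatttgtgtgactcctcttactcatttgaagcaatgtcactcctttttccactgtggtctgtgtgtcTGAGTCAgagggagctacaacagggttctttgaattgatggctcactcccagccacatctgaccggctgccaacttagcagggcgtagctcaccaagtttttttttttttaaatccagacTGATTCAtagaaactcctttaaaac

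The genes followed each other closely in the order of mean ratio. Among the 12 neighbouring pairs of member probes, the gap between means was larger than the larger SD for 2 pairs, Zfpm2 against Twist2 probe 2383 (0.28) and Ankrd1 against Bdnf (0.16). The array values of the second pair did not overlap, and those of the other 11 pairs did. Steap1 and Zfpm2 (gap 0.22, larger SD 0.284) therefore did not differ beyond their spread, nor did Bdnf and Syt13 (0.03, larger SD 0.104) or Pxdn and Twist2 probe 5594 (0.01, larger SD 0.498). The order of Ankrd1 and Bdnf turned round, to -3.22 and -3.62, once the local median over 10 probe numbers, described further on, was subtracted. The lowest mean of all probes, -4.92 ± 0.751 (SD, n = 3), belonged to a probe with the clone name 2410003L11Rik. Just inside the set by their best probe were Pxdn (-3.11) and Emp1 (-3.09), and just outside were Efhc2 (-3.06), the clone-named 3110039M20Rik (-3.02) and the matricellular gene Ccn4 (-2.98). Lower than some members and yet not among them were, besides an unnamed probe and those with clone names (1700024B05Rik at -3.62 and a probe of a pair of clone names at -3.71), Plk2 (-3.67), Prrx1 (-3.50), Lamb1 (-3.24) and Syce1 (-3.14).

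**Figure D2:**
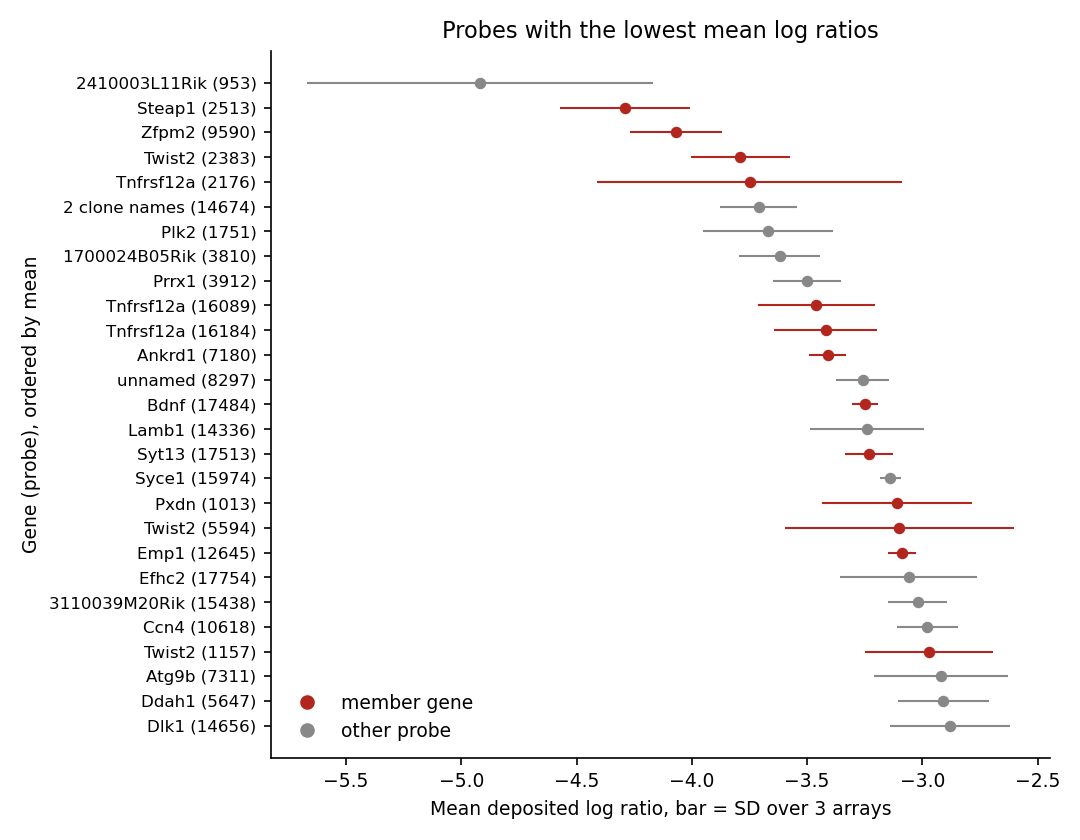
Mean deposited log ratio (horizontal axis) with the SD over 3 arrays as a bar, for the 27 probes with the lowest means, labelled by gene and probe number. Member probes (red) lie between ranks 2 and 24 and their bars overlap with those of most neighbours.

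Likeness was measured as Euclidean distance over the log ratios of the 3 arrays, among probes of other genes with 1 symbol. The 9 genes themselves and probes with several symbols, clone names or predicted names were left out, and some of these lay nearer (Bdnf and Syt13 to each other, for example). Under this rule Prrx1, a homeobox factor of limb and craniofacial mesenchyme, was the nearest probe to Ankrd1 (distance 0.198). Plk2, a stress-responsive kinase, was nearest to Twist2 probe 2383 (0.326), Zfpm2 (0.788) and Steap1 (1.08). The meiotic gene Syce1 was nearest to Emp1 (0.171), Bdnf (0.241) and Syt13 (0.245), Ccn4 to Pxdn (0.406) and the laminin chain Lamb1 to Tnfrsf12a probe 2176 (1.08). Prrx1 was the next nearest to Twist2 probe 2383 (0.614), Zfpm2 (0.988), Tnfrsf12a probe 2176 (1.13) and Steap1 (1.40), and Lamb1 to Syt13 (0.383) and Bdnf (0.408). Ccn4 was the next nearest to Emp1 (0.229), and Syce1 to Pxdn (0.442) and Ankrd1 (0.477). Over 3 arrays of 1 comparison, a short distance is largely a like mean ratio.

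Across arrays, no array was lowest for all genes: 4 of the 13 probes were lowest on array 1, 3 on array 2 and 6 on array 3. The median SD of the 13 probes was 0.223, against 0.119 over all 11086 probes and 0.207 over the 22 probes with a mean of -3 or less. Of those 22 probes 12 are among the 13, so the last 2 medians share most of their values. How far each array departed from a probe's mean was correlated between neighbouring probe numbers, with Pearson's r of 0.482, 0.588 and 0.441 on arrays 1 to 3 over 8245 pairs of neighbours, which share an array and are not independent, so no p is given. The local median over 10 probe numbers on either side, the probe itself included, was therefore computed on each array. At the member probes it ran from -0.62 to 0.43, below 0 on all 3 arrays for 4 probes and above 0 on all 3 for 4. For Steap1 it was -0.18, 0.03 and -0.62, lowest on the array where the ratio was lowest. After subtraction Steap1 had -4.07, -4.06 and -3.97 and its SD dropped from 0.284 to 0.054. The SD became smaller for 8 of the 13 probes and larger for the other 5, among them Pxdn (0.326 to 0.365). Tnfrsf12a probe 2176 kept an SD of 0.617.

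**Figure D3:**
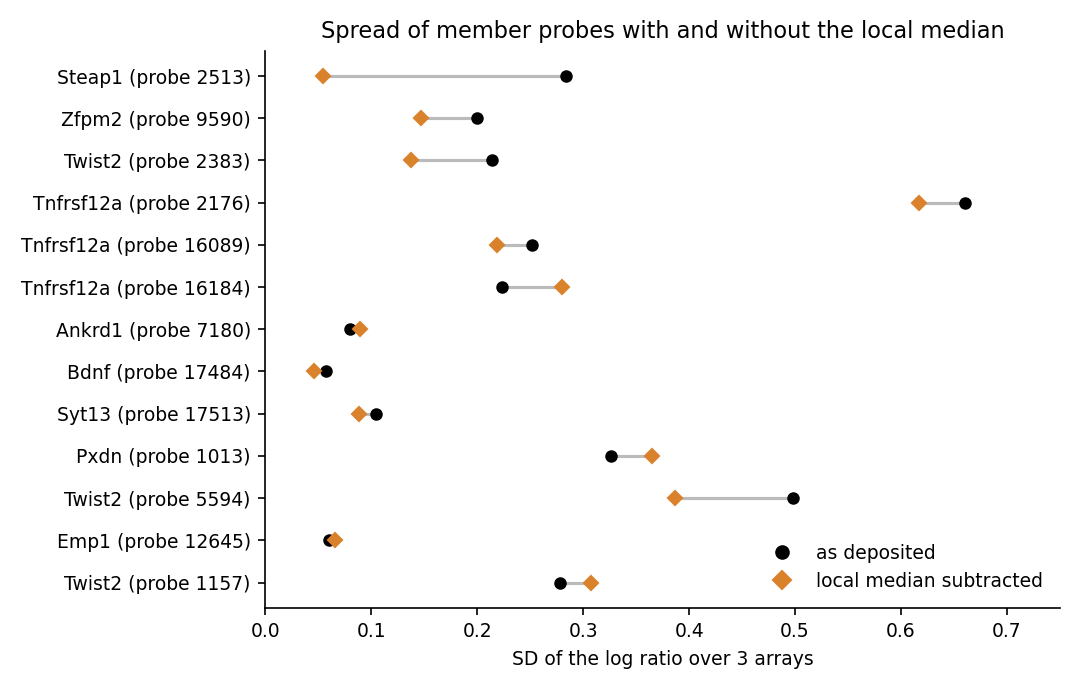
SD of the log ratio over 3 arrays (horizontal axis) for the 13 member probes measured on all arrays, as deposited (black circles) and after the local median over probe numbers was subtracted (orange diamonds). Steap1 moved from 0.284 to 0.054, and 5 probes became more spread.

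Relatives and partners of these genes went in both directions. Over 11 lists of families and pathways with a measured probe, the 9 genes themselves left out, 67 probes of 50 genes were measured on all 3 arrays, of which limma called 34 negative and 20 positive and did not call 13. That is 50.7% negative and 29.9% positive, beside 36.0% and 32.3% of all probes, with a median of -0.30 against -0.033. These lists were drawn up with the results of the 9 genes known, and nothing is read from the shares.

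Mesenchymal transcription factor probes were called negative more often than positive. Of 7 probes of 5 such genes 4 were negative, 1 was positive while 2 did not pass (median -1.73). Over all probes, 36.0% were negative and 32.3% positive, and the 4 negative probes here belong to 3 genes. Prrx1 probe 3912 had log ratios of -3.36, -3.48 and -3.66 (mean -3.50 ± 0.148, SD, n = 3, limma adjusted p = 2.06e-07), and probe 14161 had a mean of -2.24. Prrx1 probe 11166 had -0.19 and did not pass, so the probes of this gene disagree in size. Sox9, a factor of cartilage and epithelial progenitors, had -2.71, -2.37 and -2.59 (mean -2.56 ± 0.177, SD, n = 3), and Prrx2 had a mean of -1.73. Zeb1, a repressor of epithelial genes that lymphocytes also use, was positive on every array at 0.86, 0.64 and 0.74 (mean 0.75 ± 0.113, SD, n = 3). Hand1 had 0.02 and did not pass, although with the local median subtracted it was called negative (-0.20, limma adjusted p = 0.0138), as was Prrx1 probe 11166 (-0.24, limma adjusted p = 0.0133). Among partners and inhibitors of TWIST factors 3 of 8 probes were negative and 3 positive, near the shares over all probes. The 2 probes of Id1, an inhibitor of helix-loop-helix factors, had means of -2.30 and -2.08. Id3 had -0.70 on 1 probe and -0.18, which did not pass, on the other, though the second was called without array 3 (-0.32, limma adjusted p = 0.0171). Id2 had 0.61 on its called probe and -0.01 on the other, and the partner Tcf3 had 0.50 and 0.62.

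Hippo pathway probes were called negative more often than positive, and the YAP and TAZ target genes went both ways. Of 8 Hippo pathway probes of 7 genes 5 were negative, 1 was positive and 2 did not pass (median -0.32), beside 36.0% negative over all probes. Among the 5, Sav1 had -0.49, 0.02 and -0.58 (mean -0.35, limma adjusted p = 0.0381), so it was not below 0 on array 2. Wwtr1, which encodes TAZ, had log ratios of -1.98, -2.32 and -1.99 (mean -2.10 ± 0.194, SD, n = 3, limma adjusted p = 2.41e-06). The TEAD cofactor Vgll3 had a mean of -1.68 and the angiomotin relative Amotl1 -1.64, each with 3 arrays close together. Tead1 had -0.15, -0.27 and -0.49 (mean -0.30, limma adjusted p = 0.0158), and its call ended without array 3 (-0.21, limma adjusted p = 0.104). Nf2, the merlin tumour suppressor, had -0.09 and did not pass, and the kinase Taok1 had 0.26 on its called probe and 0.09 on the other, which was called without array 2 (0.23, limma adjusted p = 0.0323). The call of the first Taok1 probe ended without array 1 (limma adjusted p = 0.0651) and with the local median subtracted (0.02, limma adjusted p = 0.723). Of 7 probes of 6 YAP and TAZ target genes besides Ankrd1, 3 were negative, 3 positive and 1 did not pass (median -0.12). Ccdc80 had -1.15 on 1 probe and -0.12, which did not pass, on the other, Gadd45a had -0.93 and Asap1 -0.44. Igfbp3 was positive at 3.56, 3.65 and 3.41 (mean 3.54 ± 0.122, SD, n = 3), the kinase receptor Axl at 0.95 and the ectoenzyme Nt5e at 0.33. The call of Nt5e ended without array 2 (0.18, limma adjusted p = 0.0688). Whether the Hippo and target lists differ was not tested.

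Matrix and mesenchymal markers were split. Of 7 basement membrane probes other than Pxdn, 5 were negative, 1 positive and 1 not past the test (median -1.34). The 5 belong to 4 genes, and over all probes 36.0% were negative and 32.3% positive. The laminin chain Lamb1 had -3.10, -3.52 and -3.09 (mean -3.24 ± 0.246, SD, n = 3) on 1 probe, while its other 2 probes were listed at 0 on all arrays. Lamc1 had means of -1.82 and -1.14 on 2 probes (-0.76 for the second with the local median subtracted), Nid2 -1.35 and the collagen Col18a1 -1.34. Lama2 was positive at 1.42, 1.19 and 1.11 (mean 1.24 ± 0.161, SD, n = 3, but 0.63 with the local median subtracted), and Lama1 had -0.12 and did not pass, except without array 1 (-0.28, limma adjusted p = 0.0417). Of 14 probes of mesenchymal cell markers 8 were negative, 5 positive and 1 did not pass (median -0.65). N-cadherin, Cdh2, had -2.06, -2.20 and -2.40 (mean -2.22 ± 0.167, SD, n = 3), Col3a1 -1.70 on 1 probe and -0.18, which did not pass, on another, and vimentin, Vim, -1.36 and -1.21 on its 2 probes. Eng had 0.92 and Cnn2 0.66. The smooth muscle actin Acta2 was called in opposite directions on its 2 probes, -0.56 and 0.64. A further 8 probes of this list, with Tagln and Cd44 among their genes, were listed at 0 on all arrays.

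**Figure D4:**
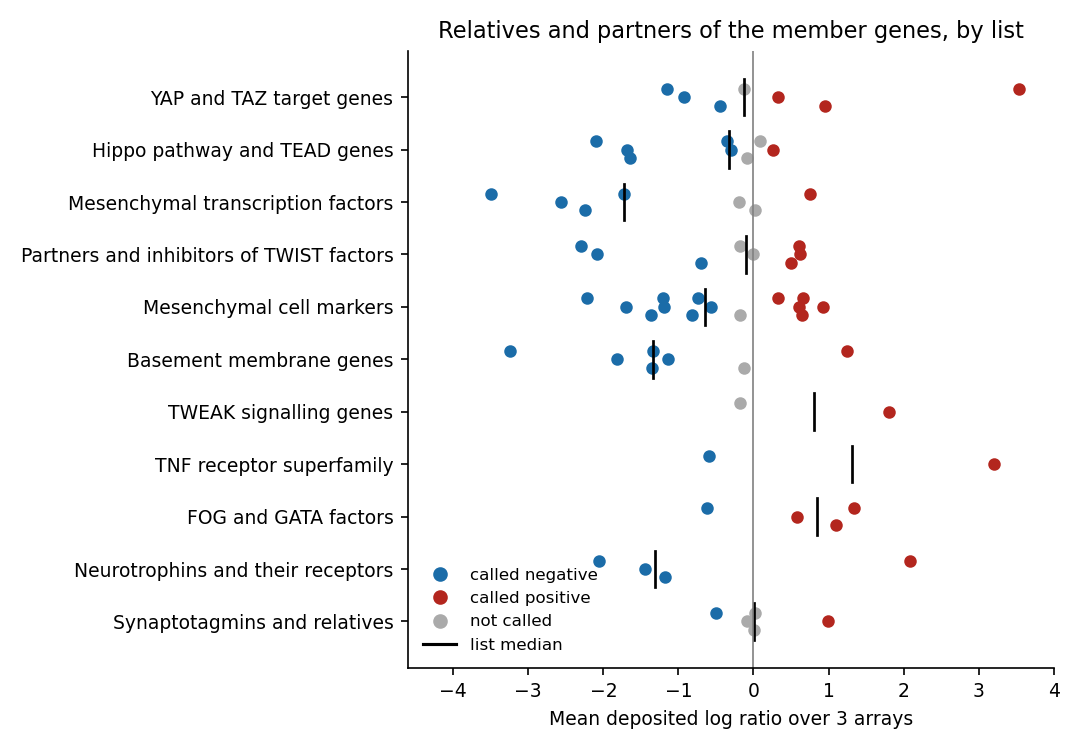
Mean deposited log ratio over 3 arrays (horizontal axis) of each probe measured on all arrays, for 11 lists of relatives and partners with the member genes left out. Blue points were called negative and red ones positive by limma, grey ones were not called, and black lines are list medians. The lowest medians are -1.73 for mesenchymal transcription factors, -1.34 for basement membrane genes and -1.31 for neurotrophins and their receptors.

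Families of the signalling and membrane genes were thinly measured. Of the neurotrophin list, besides Bdnf, 3 of 4 probes were negative, beside 36.0% of all probes, and these 3 belong to 2 genes. The receptor gene of Bdnf, Ntrk2, had log ratios of -2.04, -1.91 and -2.23 (mean -2.06 ± 0.162, SD, n = 3) on 1 probe. Probe 11862 of Ntrk2 had 0.49 and 0.48 on arrays 1 and 2, so the probes of this gene differ in sign. Probe 11009 was listed at 0 on all arrays. Bex3, which binds the low-affinity neurotrophin receptor, had -1.45 and -1.18 on 2 probes. The sorting receptor Sort1 was positive at 2.09. For TWEAK signalling, the adaptor Traf1 was positive at 1.53, 2.31 and 1.56 (mean 1.80 ± 0.439, SD, n = 3) and Nfkb2 had -0.18 and did not pass (limma adjusted p = 0.0552), though it was called with the local median subtracted (-0.42, limma adjusted p = 0.000935). Of the other TNF receptors, Tnfrsf13c, the BAFF receptor of B cells, had 3.21. Tnfrsf21 had -0.59 (-0.22 with the local median over 10 probe numbers subtracted), and the other 9 of 11 probes were not measured on all arrays. Among FOG and GATA factors, Gata6 had -0.62 and the nuclear receptor Nr2f2, a partner of Zfpm2, 0.58, 1.10 and 1.34 on 3 probes. With the local median subtracted the last 2 of these Nr2f2 values were 0.56 and 0.84. 

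Besides Syt13, 1 of 5 probes of synaptotagmins and relatives was negative, 1 positive and 3 did not pass, beside 36.0% negative and 32.3% positive over all probes. Esyt1 had 0.99 and Rph3a -0.50, whose values of -0.04, -0.96 and -0.51 differed widely and whose call ended without array 2 (-0.28, limma adjusted p = 0.0802) and with the local median subtracted (-0.22, limma adjusted p = 0.18). The 2 measured probes of the neuronal calcium sensor Syt1 had -0.09 and 0.01 and Syt8 had 0.02, all not past the test. With the local median subtracted, the first Syt1 probe was called positive (0.39, limma adjusted p = 0.0397) and Syt8 negative (-0.25, limma adjusted p = 0.00636). A probe of Perp, of the PMP22 family, and the heme peroxidase Mpo were listed at 0 on all arrays, and no probe of another STEAP gene or of another muscle ankyrin repeat gene was named here.

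A further 10 list probes were measured on 2 arrays and listed at 0 on the other, 5 of them below 0 and 5 above, and they were left out of the counts. The YAP and TAZ target Myof had -3.39 and -3.40, and the desmosomal gene Perp of the PMP22 family had -3.20 and -2.98. Zfpm1, the relative of Zfpm2, had -0.92 and -0.91, Tnfrsf22 had -0.69 and -0.78, and Tnfsf12, the gene of TWEAK itself, had -0.34 and -0.15. On the positive side, the helix-loop-helix inhibitor Id4 had 2.28 and 1.80, and the laminin chain Lamb3 had 1.28 and 0.61. Tnfrsf18 had 0.57 and 0.58, a probe of Ntrk2 had 0.49 and 0.48, and a probe of Tnfrsf1b had 0.40 and 0.59.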

How the data were processed

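Per the labels, spleen (Cy5) and reference (Cy3) were set against each other on 3 arrays, and the authors deposited log ratios for 16273 probes, recorded as log2 by assumption only, since the base, the numerator, the array type and all earlier processing are not stated. Exact 0 (24.2%, 26.8% and 24.9% of probes on arrays 1 to 3) was taken as not measured. Medians of fully measured probes were -0.028, -0.029 and -0.027, so whether the arrays were centred is unknown. Symbols came from the platform annotation (12336 probes with 1 symbol, 61 with several, 3876 unnamed here).

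With limma 3.58.1 in R 4.3.3, the ratio of each of 11086 probes was tested against 0. The variance was moderated and the test two-sided, with p-values adjusted by Benjamini-Hochberg over all probes and called under 0.05. An earlier run on simulated ratios used independent errors, whereas neighbouring probes here were correlated, so it does not vouch for the calls. Members and lists were chosen with earlier results of these data known. Named were all member probes, every gene of lists with up to 6 measured genes, the 3 lowest and 3 highest of longer lists, the 2 probes nearest to each member, and probes around the members in the order of means. Genes not measured on all arrays, and Sav1, were named after their values were seen. The number of arrays limits the precision. Figures used matplotlib 3.10.9 in Python 3.11.15.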

Additional observations from a re-analysis of the deposited data

How the results depend on the processing

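For the 13 member probes, chosen for strongly negative means, a change of sign could hardly be met, and keeping 0 cannot change them, since they hold none. It moves the mean over all probes of Ankrd1 to -1.70 and of Twist2 to -3.0. With centring, scaling or each array left out, the 13 means moved by less than their SD. Leaving out an array can never move a mean by as much as its SD. Centring shifted every probe by less than the smallest SD, so neither setting could have shown a larger move. With local medians over 10 and 40 probe numbers the means moved by more than their SD for Ankrd1 (-3.22 and -3.31), Bdnf (-3.62 and -3.48), Syt13 (-3.41 and -3.45) and Emp1 (-2.99 and -3.02). At both settings Bdnf lay below Ankrd1, the reverse of their order as deposited. Among list probes, testing for more than 1.5-fold (base 2, limma) left 24 called negative in place of 34 and 9 positive in place of 20. That test asks for a larger change by construction. Over 13 settings, the other counts ran from 28 to 38 negative and from 15 to 25 positive. The largest, 38 and 25, came when probes measured on 2 arrays were added, so they cover more probes. With 0 kept, all list probes were counted. Of 62 named list probes, Sav1 left aside, 49 were called. With 0 kept, 8 lost their call (Tead1, Cnn2, Eng, Id2, Rph3a, Tnfrsf21, Asap1 and Nt5e), and without moderation of the variance 9 did, the same probes and a probe of Tcf3. At an adjusted p under 0.01 Tead1, Taok1, Rph3a and Nt5e lost theirs, and against a 1.5-fold change 17 probes did. With local medians over 10 probe numbers, the other Tcf3 probe (0.21) lost its call, Col3a1 probe 16982 (-0.22) gained one, and Tead1 (-0.52), Nt5e (0.75) and Acta2 probe 3402 (0.41) moved by over 1.5 times. At the same setting Hand1 (-0.20), Syt1 probe 4478 (0.39) and Syt8 (-0.25) turned sign and were called. With 40 probe numbers none of these 3 was called, and the cause was not tested. No paired analysis was possible because the arrays form 1 group. Signal over background is unknown.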
